A study of Mus musculus with 8 samples.

Results

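The comparison set the organoid libraries that were treated with lenvatinib or are labelled resistant to it, here called exposed, against the parental libraries, and asked which transcript differences lenvatinib-treated and lenvatinib-resistant organoids shared in both lines that have such libraries. Members were taken from the labels alone: 4 exposed libraries (2 lenvatinib-treated and 2 lenvatinib-resistant, each kind from lines SNU-6624 and SNU-6625) and 4 parental libraries (1 each of those lines and of SNU-6621 and SNU-6622), which together are all 8 libraries analysed. The samples are mouse tumour organoids, 3-dimensional epithelial cultures that the labels call MASH-related HCC organoids, that is, liver cancer linked to metabolic dysfunction-associated steatohepatitis. All 8 carry the genotype label WT. The parental libraries and the resistant ones (cell line labels SNU-6624-TO-LEN and SNU-6625-TO-LEN) carry the treatment label control, and the treated ones carry Lenvatinib. Whether resistant organoids were under the drug when collected is not in the labels, which also give no dose, no duration, no strain and no animal. Each line contributed 1 library per group, and parental SNU-6621 and SNU-6622 have no exposed counterpart, so line and exposure are not balanced.

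Lenvatinib blocks the tyrosine kinases of the VEGF and FGF receptors, PDGFRA, KIT and RET and is used against liver cancer. Cells under protein-folding stress release the transcription factor HSF1, which binds heat shock elements and switches on chaperone genes, the products of which refold or hold unfolded proteins. Dividing cells switch on a separate set of genes before mitosis, and their promoters often carry a CHR element, bound by MuvB complexes such as DREAM, together with CCAAT boxes, bound by NF-Y.

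The promoters of those gene groups are shown first, because chaperone and mitosis genes made up the pathway lists with the largest shares of members on one side in all exposed libraries. Each sequence is the 250 bases upstream of the first start listed for the gene, read 5′ to 3′ on the gene's strand from RefSeq (GRCm38.p6). For the chaperone genes Hsph1, Hspe1 and Dnaja1, capitals mark heat shock element matches, searched as GAANNTTC or TTCNNGAA, each of which reads the same on both strands. The Hsph1 window overlaps the span of its longest transcript.

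Hsph1 chr5:149636337-149636586, minus strand: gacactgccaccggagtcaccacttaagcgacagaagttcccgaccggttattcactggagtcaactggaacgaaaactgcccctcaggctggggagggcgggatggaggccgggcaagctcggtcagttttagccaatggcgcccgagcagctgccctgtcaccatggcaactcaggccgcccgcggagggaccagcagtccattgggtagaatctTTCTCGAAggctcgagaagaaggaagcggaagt
Hspe1 chr1:55087898-55088147, plus strand: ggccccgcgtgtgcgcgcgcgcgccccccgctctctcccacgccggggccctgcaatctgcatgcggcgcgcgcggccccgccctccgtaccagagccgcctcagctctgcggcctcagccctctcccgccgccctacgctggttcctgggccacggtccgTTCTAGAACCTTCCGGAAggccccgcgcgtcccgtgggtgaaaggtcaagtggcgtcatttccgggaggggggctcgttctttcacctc
Dnaja1 chr4:40722218-40722467, plus strand: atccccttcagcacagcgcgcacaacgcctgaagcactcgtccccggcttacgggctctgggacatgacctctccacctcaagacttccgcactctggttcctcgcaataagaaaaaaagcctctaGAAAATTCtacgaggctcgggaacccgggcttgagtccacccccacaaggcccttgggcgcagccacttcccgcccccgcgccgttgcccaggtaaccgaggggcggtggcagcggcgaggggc

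For the mitosis genes Cdc20, Ccnb2 and Cdk1, capitals mark the CHR element TTTGAA and the CCAAT box on either strand (ATTGG on the reverse strand).

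Cdc20 chr4:118437344-118437593, minus strand: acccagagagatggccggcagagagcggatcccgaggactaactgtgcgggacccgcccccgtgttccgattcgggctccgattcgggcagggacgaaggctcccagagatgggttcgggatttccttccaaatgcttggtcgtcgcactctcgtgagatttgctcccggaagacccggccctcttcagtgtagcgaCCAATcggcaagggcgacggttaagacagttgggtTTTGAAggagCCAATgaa
Ccnb2 chr9:70421555-70421804, minus strand: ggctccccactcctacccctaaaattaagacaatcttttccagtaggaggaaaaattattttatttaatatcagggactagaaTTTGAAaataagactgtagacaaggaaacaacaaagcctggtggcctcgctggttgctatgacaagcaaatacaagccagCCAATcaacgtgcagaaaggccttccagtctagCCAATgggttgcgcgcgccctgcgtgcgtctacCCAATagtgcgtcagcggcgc
Cdk1 chr10:69352913-69353162, minus strand: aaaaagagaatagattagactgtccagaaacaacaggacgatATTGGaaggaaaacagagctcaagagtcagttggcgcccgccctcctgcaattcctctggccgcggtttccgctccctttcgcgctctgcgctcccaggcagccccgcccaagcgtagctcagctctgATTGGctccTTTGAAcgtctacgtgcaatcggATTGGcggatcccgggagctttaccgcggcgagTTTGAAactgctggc

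Hspe1 carried 3 heat shock element matches that overlap one another, and Hsph1 and Dnaja1 carried 1 each. The promoters shown all hold the marked motifs, but others of both groups do not. For instance, Dnajb1 and Dnajb4 had 0 heat shock element matches, and Hmmr and Cenpf had 0 matches to TTTGAA on either strand. Only these letters were searched as the CHR element. A match was found in 6 of the 14 chaperone genes, of 19 in the list, with a promoter in the table (42.9%), against 12.9% of 27025 promoters and 10.3% of the 11635 promoters of tested genes. Of the 30 mitosis genes 24 had a promoter there. A CHR element was held by 8 of 24 (33.3%), against 16.3% of all promoters and 11.3% of those of tested genes. A CCAAT box was held by 19 of 24 (79.2%), against 34.5% and 36.6%. Of the chaperone genes that were higher in all 4 exposed than in all 4 parental libraries, 4 of 10 held a heat shock element match. Of the other chaperone genes 2 of 4 did. Of the corresponding lower mitosis genes, 8 of 21 held a CHR element and 17 of 21 a CCAAT box, and of the other mitosis genes 0 of 3 and 2 of 3. These counts describe letters in a window and not binding.

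Values in the text follow the line numbers: SNU-6621, SNU-6622, SNU-6624, then SNU-6625 for parental organoids, and SNU-6624, then SNU-6625 for each exposed kind. The libraries held 49 to 61 M (megacounts) of counts, and 19426 to 20867 genes had a count above 0. Gene levels are in CPM, counts scaled to the total of a library in megacounts and to its TMM factor. Summed levels of marker lists use the totals without that factor, and so does the limit that 0 counts allows, 3 counts or 0.0492 to 0.0612 CPM, which covers counting error only. Mature hepatocyte genes were scarce for cultures with this label: 8 of 27 passed the filter on low counts, and Alb, the albumin gene, had 0 counts in all 8 libraries. Of the markers of other cells, 2 of 16 for stellate cells and fibroblasts, 6 of 14 endothelial, 4 of 16 macrophage, 1 of 17 lymphocyte and 0 of 7 red blood cell genes passed, and the leukocyte gene Ptprc was at 0 in every library. The summed CPM of the fibroblast list was 2.47 to 26.6 in the parental and 0.265 to 1.17 in the exposed libraries. Of the parental sums of 26.6, 7.31, 3.41 and 2.47 CPM, the gene Lrat alone gave 23.7, 6.42, 2.72 and 1.2. Acta2, Col3a1, Dcn and Lum had 0 counts in every library. Des had 0 counts in the parental and 4 to 13 in the exposed libraries. Of the genes of intestinal epithelium 10 of 20 passed, with a summed CPM of 1927 to 3371 in parental, 149.9 and 246 in treated and 2658 and 1309 in resistant libraries. Of those 10, 2 were lower in all exposed than in all parental libraries (Cdx2 and Slc5a1, 20% against 5.58% of all genes). Their part in the differences below was not tested. The share of ribosomal RNA genes, nearly all of it mt-Rnr1 and mt-Rnr2 of the mitochondrion, was 0.0942% to 0.1103% of all counts for parental and 0.0411% to 0.0533% for exposed libraries, and that of genes of the mitochondrial genome was 7.09% to 8.65% and 5.12% to 6.25%. Both shares separated the groups, and their part in the differences below was not tested. The labels used here name no batch, so a difference in preparation between parental and exposed libraries cannot be told apart from the groups.

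**Figure D1:**
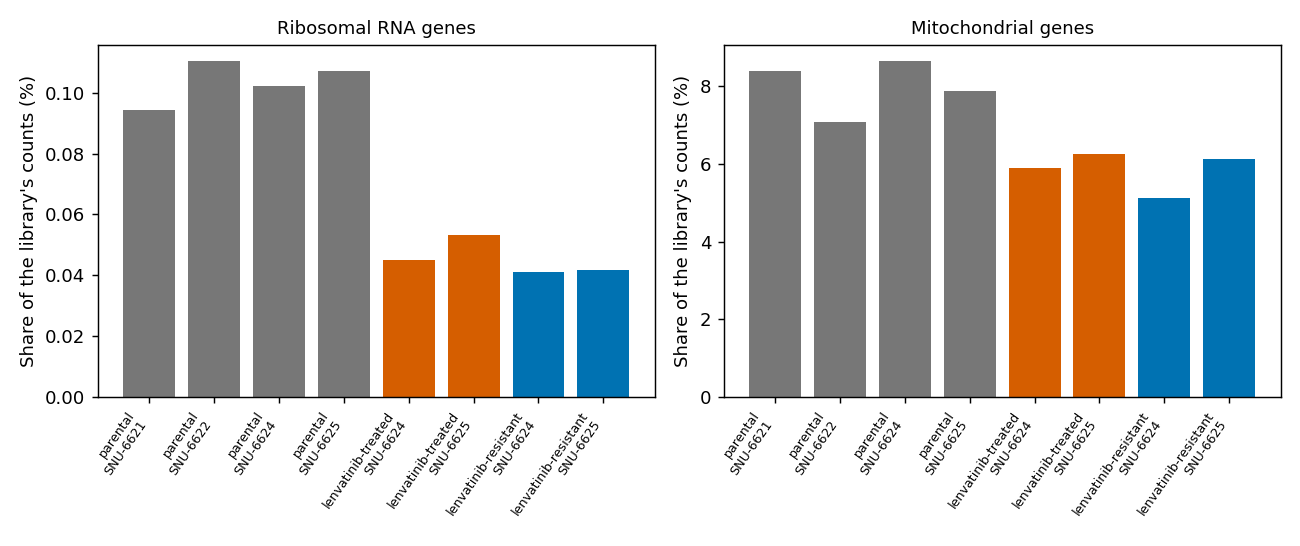
Share of each library's counts (%) in ribosomal RNA genes (left) and in genes of the mitochondrial genome (right), 1 bar per library, by group and line. Every exposed bar is lower than every parental bar in both panels.

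With the 4 exposed libraries as one group, no gene passed the test. The edgeR quasi-likelihood test called 0 of 16088 genes (0%) at a Benjamini-Hochberg adjusted p under 0.05, and the smallest adjusted p was 0.104. At an unadjusted p under 0.05 there were 2984 genes. Limma-voom also called 0, while DESeq2 called 1367 genes, 697 higher and 670 lower in exposed organoids. When treated and resistant libraries were fitted as separate groups and their mean was set against parental, so that the difference between the kinds left the residual spread, edgeR called 744 genes (4.62%), 366 higher (2.27%) and 378 lower (2.35%). That result did not hold with line added as a block, which leaves fewer residual degrees of freedom. There edgeR called 0 genes, 3724 had an unadjusted p under 0.05 and the smallest adjusted p was 0.0886. Calls from the fit with 3 groups are given below under that name. Such a call can come from the treated or the resistant libraries alone, as for Hnf4a below, so by itself it does not show a shared difference. With line as a block in the edgeR fit with 2 groups, no gene had an adjusted p under 0.552. That fit had 3 residual degrees of freedom, against 6 without the block. With a block, parental SNU-6621 and SNU-6622 do not inform the difference, since they have no exposed library.

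Beside the test, genes were counted by the order of their values. In 1041 genes (6.47%) all 4 exposed libraries were above all 4 parental libraries, and in 897 genes (5.58%) all 4 were below, 1938 genes (12%) in all. These genes are called separated here, and the count carries no test. Of the genes called with 3 groups, 299 of 366 higher and 239 of 378 lower ones were separated (1.86% and 1.49% of all genes tested). Each exposed library was also set against the parental library of its own line, on the log2 CPM scale (prior count 2). The smallest of those 4 own-line differences was at least 1 in 36 of the separated genes that were higher (0.224% of all tested) and in 227 that were lower (1.41%), so large differences present in every exposed library were mostly downward. Separation depended on which libraries took part: without resistant SNU-6624 there were 2114 higher and 2122 lower genes, without resistant SNU-6625 there were 1666 and 1387, and without parental SNU-6621 there were 1594 and 1548. Fewer libraries are easier to separate, so such counts could hardly fall below those of all 8 libraries.

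Most heat shock chaperone genes were higher in all exposed libraries. Of 19 members of the list, 13 were separated upward and 0 downward, against 6.47% and 5.58% of all genes, and the median log2 fold change was 0.87, against 0.00 over all genes tested. With 3 groups 10 members were called higher, against 2.27% of all genes, and 0 lower. Despite the name of the list, cytosolic heat shock chaperones, the 13 include Hspd1 and Hspe1, which form the chaperonin of the mitochondrial matrix. The list was chosen with results of these libraries known and is not independent evidence.

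Hsph1 (gene 15505, chr5:149616843-149636498), which encodes the HSP110 nucleotide exchange factor that works with HSP70, had 62.3, 35.5, 31.3 and 31.4 CPM in the parental, 384 and 286 in the treated and 110.1 and 299.6 in the resistant libraries. All 4 exposed values were above the highest parental value, and resistant SNU-6624 was the lowest of them. The mean was 40.1 ± 14.9 CPM in parental and 269.9 ± 115 CPM in exposed organoids (SD, n = 4 each), a log2 fold change of 2.75 with an SE of 0.41 (adjusted p = 0.104 by edgeR; 0.032 with 3 groups; 9.8e-08 to 0.552 over all alternatives). Dnajb1 (gene 81489, chr8:83608175-83612653), an HSP40 co-chaperone of HSP70, had 92, 71.7, 67.4 and 59.1 CPM in the parental, 248 and 210.5 in the treated and 182 and 171 in the resistant libraries. Its groups did not overlap and the exposed libraries lay close together, 1.43 to 1.88 above their own parental lines on the log2 scale. The log2 fold change was 1.48 with an SE of 0.19 (adjusted p = 0.104 by edgeR; 0.0241 with 3 groups; 6.31e-09 to 0.552 over all alternatives).

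Dnajb4, another HSP40 gene, had 42.7, 59.1, 62.7 and 46.6 CPM in the parental, 205 and 160.4 in the treated and 114 and 121 in the resistant libraries. Hsp90aa1, the inducible HSP90 gene, had 553, 436, 486 and 430.4 CPM in the parental, 1859 and 1462 in the treated and 854 and 1537 in the resistant libraries. Both separated the groups, with log2 fold changes of 1.51 and 1.58, and resistant SNU-6624 was again the lowest exposed library in each. Hspe1 (gene 15528, chr1:55088148-55091317), the co-chaperonin with the 3 promoter matches, had 60.9, 61.3, 71.1 and 62.5 CPM in the parental, 176 and 162 in the treated and 109 and 134 in the resistant libraries. Its parental mean was 64 ± 4.83 CPM (SD, n = 4), against 145 ± 29.6 CPM in exposed libraries, a log2 fold change of 1.18 with an SE of 0.17 (adjusted p = 0.104 by edgeR; 0.0241 with 3 groups; 5.92e-07 to 0.552 over all alternatives). Its partner Hspd1 had 244, 215, 272 and 282 CPM in the parental, 469.9 and 375 in the treated and 408 and 457 in the resistant libraries, again with no overlap.

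The inducible HSP70 gene Hspa1b had 214, 204, 234 and 238 CPM in the parental, 724 and 506 in the treated and 1132 and 339 in the resistant libraries. Resistant SNU-6624 was its highest library and resistant SNU-6625 its lowest exposed one, while in Hsph1, Dnajb4 and Hsp90aa1 resistant SNU-6624 was the lowest exposed library. Its near-identical copy Hspa1a was not separated, with 591 and 120.4 CPM in the resistant libraries and a highest parental value of 122, and reads may be split between the copies. The other separated members, Hspa8, Dnaja1, Hsp90ab1, Bag3, Stip1 and Hspa4, had log2 fold changes between 0.57 (Stip1, the adaptor between HSP70 and HSP90) and 1.16 (Dnaja1, an HSP40). The 6 members that overlapped were Hspa1a, Hspa4l, the small heat shock protein genes Cryab, Hspb1 and Hspb8, and Hsf1. Hsf1, which encodes the regulator itself, had 52, 54.7, 54.8 and 48.8 CPM in the parental, 109 and 105 in the treated and 43.9 and 54.1 in the resistant libraries, so it was higher in the treated libraries only. The small heat shock protein gene Hspb1 ran from 1.38 to 220.02 CPM within the parental group.

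**Figure D2:**
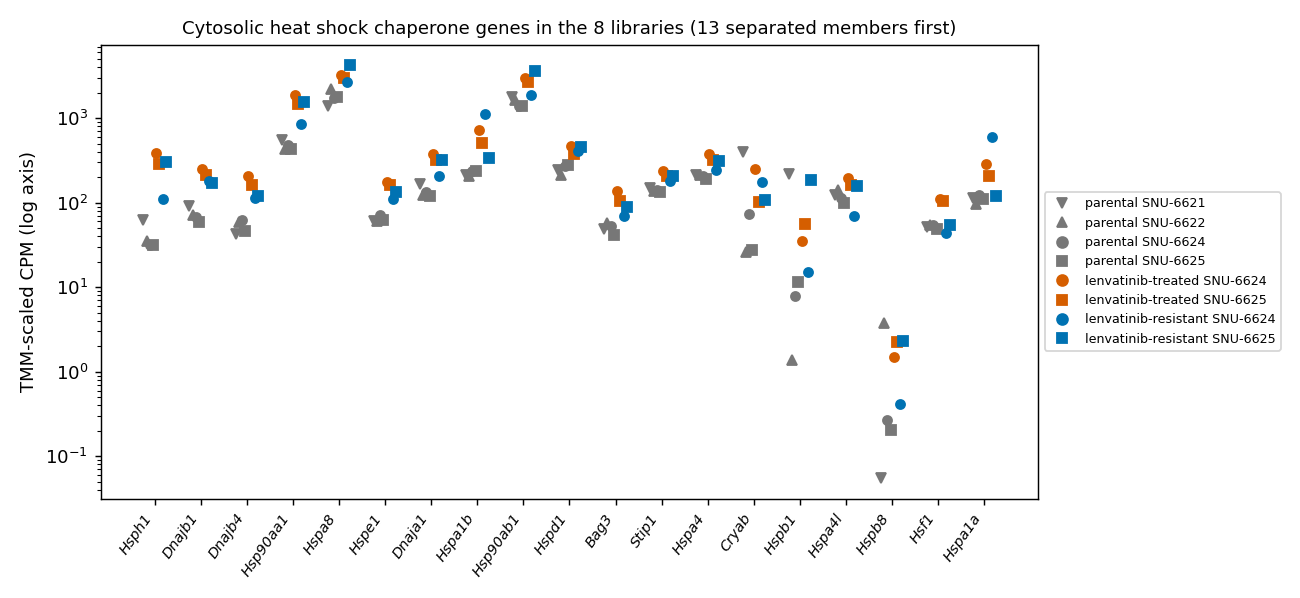
TMM-scaled CPM (log axis) of the 19 heat shock chaperone genes in the 8 libraries, 1 point per library, with grey for parental, orange for treated and blue for resistant organoids and the marker shape for the line. In the 13 genes on the left every coloured point is above every grey point, as in Hsph1 with 110.1 CPM at the lowest exposed and 62.3 CPM at the highest parental library.

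Most genes of the G2 phase and mitosis were lower in all exposed libraries. Of 30 members tested, 26 were separated downward and 0 upward, against 5.58% and 6.47% of all genes, and the median log2 fold change was -3.04. With 3 groups 7 were called lower (Kif23, Kif2c, Foxm1, Hmmr, Ccna2, Ccnb2 and Birc5), against 2.35% of all genes. In bulk libraries, fewer dividing cells and less of these transcripts per cell cannot be told apart. The parental libraries also differed among themselves, with SNU-6624 and SNU-6625 above SNU-6621 and SNU-6622 in most members.

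Cdc20 (gene 107995, chr4:118432901-118437343), the activator of the anaphase-promoting complex, had 11.7, 32.4, 60.0 and 65.2 CPM in the parental, 5.06 and 3.26 in the treated and 9.05 and 0.802 in the resistant libraries. The highest exposed value, in resistant SNU-6624, was under the lowest parental value, in SNU-6621. The mean was 42.3 ± 25 CPM in parental and 4.54 ± 3.47 CPM in exposed organoids (SD, n = 4 each), a log2 fold change of -3.22 with an SE of 0.79 (adjusted p = 0.149 by edgeR; 0.0684 with 3 groups; 0.000541 to 0.552 over all alternatives). Mki67, the gene of the proliferation marker Ki-67, had 53.6, 75, 215 and 232 CPM in the parental, 1.41 and 1.75 in the treated and 38.8 and 0.324 in the resistant libraries. Its groups did not overlap, but on the log scale the exposed values spread over a wider range than the parental ones, and resistant SNU-6624 was close to parental SNU-6621.

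Ccnb2, a mitotic cyclin gene, had 11.3, 16.6, 36 and 38.6 CPM in the parental, 0.0503 and 0.183 in the treated and 6.53 and 0.172 in the resistant libraries. Treated SNU-6624 held 3 counts and resistant SNU-6625 held 9, so fold sizes for those libraries rest on few counts. Aurkb, the kinase of the chromosomal passenger complex, had 8.2, 11.2, 29.3 and 27.6 CPM in the parental, 0.402 and 0.883 in the treated and 4.84 and 0.286 in the resistant libraries, and again resistant SNU-6624 was the highest exposed library. Birc5, the gene of survivin in the same complex, had 7.28, 11.8, 25.2 and 28.2 CPM in the parental, 2.8 and 4.51 in the treated and 4.72 and 3.76 in the resistant libraries. Here the 4 exposed libraries lay together, at 3.95 ± 0.871 CPM (SD, n = 4), and the log2 fold change was -2.20 with an SE of 0.45 (adjusted p = 0.13 by edgeR; 0.0491 with 3 groups).

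Kif23, a kinesin of the midbody, had the smallest adjusted p with 3 groups in the list (0.0259). It had 81.1, 49.5, 79.1 and 67.8 CPM in the parental, 6.37 and 6.71 in the treated and 39.7 and 17.1 in the resistant libraries, and both resistant values lay between the treated and the parental ones. Foxm1, the transcription factor of this programme, had 9.96, 13.1, 28.8 and 31 CPM in the parental, 0.519 and 0.4 in the treated and 8.3 and 1.58 in the resistant libraries. The 4 members that overlapped, Aurka, Nuf2, Tpx2 and Ttk, did so through resistant SNU-6624, which was above parental SNU-6621. In Ttk, for instance, it had 3.82 CPM against 2.74 CPM, while the other exposed libraries had 0, 0.133 and 0. Without resistant SNU-6624 all 30 members were separated, beside 2122 of 16538 genes separated downward in that setting.

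**Figure D3:**
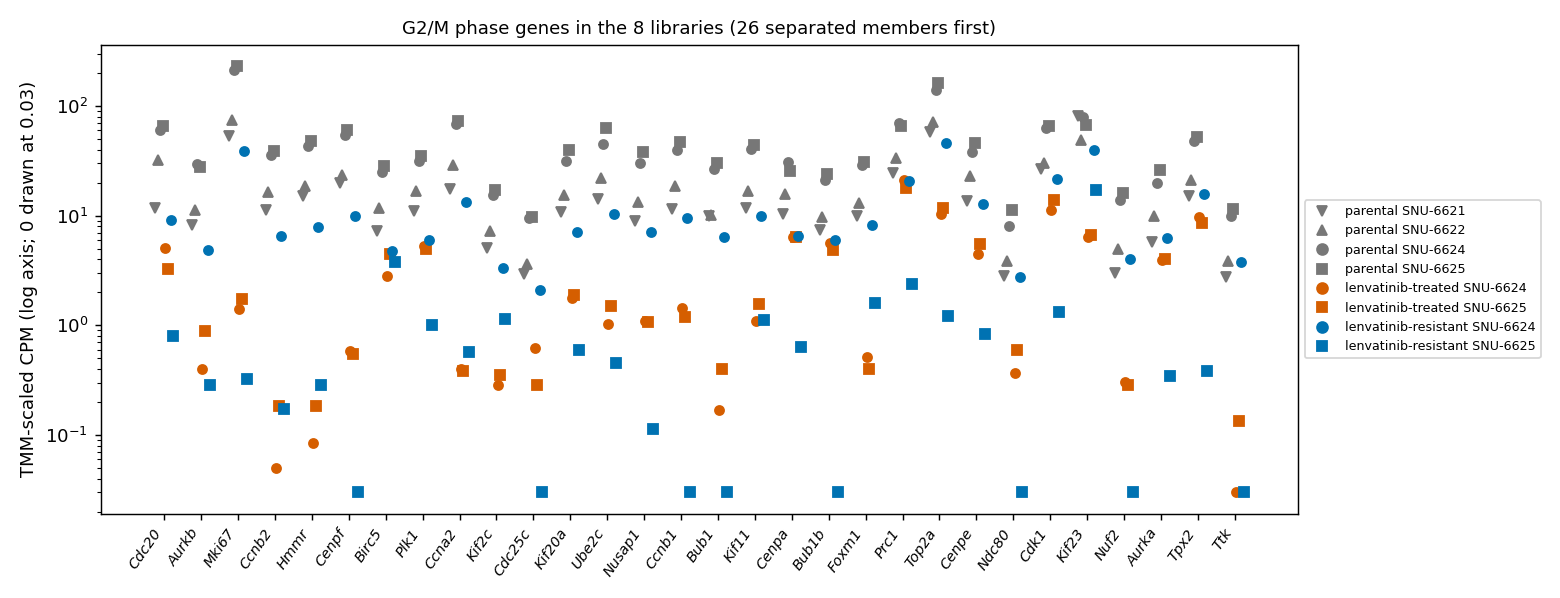
TMM-scaled CPM (log axis, with values of 0 drawn at 0.03) of the 30 G2/M genes in the 8 libraries, 1 point per library, with grey for parental, orange for treated and blue for resistant organoids and the marker shape for the line. In the 26 genes on the left all coloured points are below all grey ones, and the blue circle of resistant SNU-6624 is the highest coloured point in most of them.

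Genes of the G1/S transition did not share that pattern. Of 30 members 0 were separated in either direction, 1 was called lower with 3 groups (Tk1, thymidine kinase, adjusted p = 0.047), and the median log2 fold change was -0.81. Resistant SNU-6624 was again the library that differed: without it 18 members were separated downward. Over all genes the number separated downward also rose in that setting, to 2122 of 16538 from 897 of 16088. Mcm5, a subunit of the replicative helicase, had 11.8, 11.7, 34.4 and 35.1 CPM in the parental, 1.98 and 1.7 in the treated and 36.6 and 0.554 in the resistant libraries, so resistant SNU-6624 was the highest library of all and the other exposed ones were the lowest. The sliding clamp gene Pcna had 76, 87.9, 138 and 149 CPM in the parental, 163 and 157 in the treated and 174 and 104 in the resistant libraries, with overlap in both directions.

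Of 24 members of the nucleolus and ribosome biogenesis list, genes for making ribosomes, 8 were separated upward (33.3%, against 6.47% of all genes), 0 were separated downward and 16 overlapped. With 3 groups 5 were called higher, against 2.27% of all genes, and the median log2 fold change was 0.36. Heatr1 (gene 217995, chr13:12395375-12438893), a factor of the small-subunit processome that is not in this list, had the smallest p of any named gene that was higher. It had 35.9, 34.5, 35.9 and 34.1 CPM in the parental, 67.4 and 66.4 in the treated and 57.7 and 69.5 in the resistant libraries. The parental libraries were almost level, and every exposed library stood well above them. The means were 35.1 ± 0.927 and 65.2 ± 5.17 CPM (SD, n = 4 each), a log2 fold change of 0.89 with an SE of 0.11 (adjusted p = 0.104 by edgeR; 0.0241 with 3 groups; 7.18e-14 to 0.552 over all alternatives).

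Bop1, which acts in maturation of the large subunit, had 40.5, 40.5, 42.2 and 46.1 CPM in the parental, 83.3 and 72.7 in the treated and 83 and 103 in the resistant libraries. Rrp12, needed for export of both subunits, had 27.4, 22.9, 23.9 and 21.3 CPM in the parental, 62.6 and 56 in the treated and 42.8 and 69.4 in the resistant libraries. Rrp9, a protein of the U3 small nucleolar particle, had 15.8, 14.8, 16.6 and 15.9 CPM in the parental, 36.5 and 31.5 in the treated and 25.8 and 31.8 in the resistant libraries. In each of these genes the groups did not overlap and the fit with 3 groups called the gene (adjusted p = 0.0241, 0.0299 and 0.0259). Rrn3, the initiation factor of RNA polymerase I, had 50.3, 45.2, 48 and 44.7 CPM in the parental, 96.8 and 88.5 in the treated and 55.8 and 72.6 in the resistant libraries, with resistant SNU-6624 nearest to the parental range. Not all nucleolar genes followed: Npm1, Fbl and Polr1c had log2 fold changes of -0.04, 0.02 and -0.03. Of 35 ribosomal protein genes 1 was separated upward (2.86%, against 6.47% of all genes), 0 were separated downward, and their median log2 fold change was -0.13.

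The ribosomal RNAs of the mitochondrion were among the genes with the smallest p on the low side. They make up nearly all of the ribosomal RNA share given above. The small subunit RNA mt-Rnr1 had 313, 555, 451 and 448 CPM in the parental, 164 and 188 in the treated and 173 and 148 in the resistant libraries. The large subunit RNA mt-Rnr2 had 599, 585, 589.6 and 616 CPM in the parental, 261 and 295 in the treated and 235 and 336 in the resistant libraries. For mt-Rnr2 the parental mean was 597 ± 13.7 CPM (SD, n = 4) and every exposed value was under every parental one, a log2 fold change of -1.08 with an SE of 0.15 (adjusted p = 0.104 by edgeR; 0.0275 with 3 groups; 2.26e-10 to 0.552 over all alternatives). Of the 13 protein-coding genes of that genome 3 were separated downward (ND1, ATP8 and COX1, 23.1% against 5.58% of all genes). With 3 groups 0 were called, and the median log2 fold change was -0.51.

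Genes of the integrated stress response, in which ATF4 raises genes for amino acid supply and redox balance, were partly shared. Of 25 members 5 were separated upward (20%, against 6.47% of all genes) and 0 downward, 8 were called higher with 3 groups, against 2.27% of all genes, and the median log2 fold change was 0.73. Chac1, a glutathione-degrading enzyme gene, had 7.05, 14.4, 15.7 and 9.55 CPM in the parental, 96.5 and 68.4 in the treated and 26.7 and 44.7 in the resistant libraries. Phgdh, which opens serine synthesis, had 73.8, 57.7, 84.3 and 68.7 CPM in the parental, 268 and 221 in the treated and 141 and 136 in the resistant libraries. In both the treated libraries were the highest, the resistant ones were next, and no exposed value fell into the parental range. Their log2 fold changes were 2.34 (SE 0.43) and 1.43 (SE 0.25), with adjusted p = 0.0314 and 0.0241 with 3 groups. Gdf15, a stress cytokine gene, had 307, 216, 301 and 263 CPM in the parental, 629 and 551 in the treated and 438 and 649 in the resistant libraries, with no such step between the kinds. Atf4 and Ddit4 were also separated. Asns, Mthfd2, Shmt2 and Slc3a2 were called with 3 groups but overlapped, through resistant SNU-6625 for Shmt2 and through resistant SNU-6624 for the others. Asns, the asparagine synthetase gene, had 62.4, 82.6, 116 and 78.7 CPM in the parental, 303 and 303 in the treated and 97.1 and 133 in the resistant libraries. Without parental SNU-6624 the number of members separated upward was 11, beside 1266 of 16403 genes. Without resistant SNU-6624 it was 10, beside 2114 of 16538 genes.

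Of 19 chaperones and folding factors of the endoplasmic reticulum, 4 were separated upward (21.1%, against 6.47% of all genes), 0 downward, and 4 were called with 3 groups, with a median log2 fold change of 0.13. Hspa5, the gene of BiP, had 777, 559, 775 and 748 CPM in the parental, 1321 and 1107 in the treated and 1239.7 and 1589.5 in the resistant libraries. Hyou1, its nucleotide exchange factor, had 209, 176, 203 and 179 CPM in the parental, 366 and 309.8 in the treated and 251 and 242 in the resistant libraries. Neither overlapped, and Creld2 and Dnajb11 were the other members on that side. The rest of the list did not separate: Hsp90b1, Calr and Pdia3 had log2 fold changes of 0.01, 0.06 and -0.06.

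Among 20 targets of p53, 4 were separated upward (Btg2, Gdf15, Plk2 and Tigar, 20% against 6.47% of all genes) and 0 downward, with a median of 0.42. Plk2, a kinase gene that p53 raises, had 407, 252, 355 and 206 CPM in the parental, 576 and 422 in the treated and 911 and 1379 in the resistant libraries. Its groups did not overlap, but treated SNU-6625 was close to parental SNU-6621. Cdkn1a, the gene of the cell cycle inhibitor p21, overlapped: it had 347, 155, 236 and 134 CPM in the parental, 263 and 172 in the treated and 367 and 495 in the resistant libraries. Gadd45g and Gadd45b, growth arrest genes outside this list, were both separated. Gadd45b had 51.1, 38.4, 42.2 and 28.5 CPM in the parental, 110.3 and 111 in the treated and 74.8 and 106 in the resistant libraries, a log2 fold change of 1.33 (SE 0.21, 0.0341 as the adjusted p with 3 groups). Gadd45g had 5.28, 9.2, 8.89 and 14.4 CPM in the parental, 39.9 and 52.4 in the treated and 18 and 50.9 in the resistant libraries. Every exposed value of both was above the parental range. The CDK inhibitor gene Cdkn2b had 42.7, 40.1, 33.9 and 34.9 CPM in the parental, 65.5 and 67.8 in the treated and 42.8 and 99.2 in the resistant libraries, with resistant SNU-6624 next to the highest parental library.

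Of the receptors that lenvatinib inhibits, 6 of 11 passed the filter on low counts, 3 were separated downward (50% of those tested, against 5.58% of all genes) and 0 upward, and 1 was called lower with 3 groups. Kdr, Fgfr1, Pdgfra, Pdgfrb and Kit did not pass it. Ret (gene 19713, chr6:118151748-118197744) had 12.6, 4.36, 13.6 and 6.93 CPM in the parental, 0.57 and 0.217 in the treated and 2.68 and 3.93 in the resistant libraries. Its highest exposed value, in resistant SNU-6625, was just under its lowest parental value, in SNU-6622, and the log2 fold change was -2.35 with an SE of 0.87 (adjusted p = 0.223 by edgeR; 0.0362 with 3 groups; 0.0362 to 0.666 over all alternatives). Fgfr3 had 9.15, 2.38, 9.01 and 2.7 CPM in the parental, 2.03 and 1.93 in the treated and 2.07 and 2.29 in the resistant libraries. The exposed libraries lay at one level, while the parental libraries fell into high values in SNU-6621 and SNU-6624 and values near the exposed ones in the other lines. Fgfr4 was the third, at 0 to 0.851 CPM over the 8 libraries.

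Flt1, the gene of VEGF receptor 1, had 38.5, 0.212, 0.202 and 0.0811 CPM in the parental, 0 and 0.0833 in the treated and 0.295 and 3.93 in the resistant libraries. Fgfr2 had 31.6, 0.283, 0.354 and 0 CPM in the parental, 0.067 and 0.0999 in the treated and 0.197 and 0 in the resistant libraries. In both 1 parental line, SNU-6621, carried the parental mean. Flt4, the gene of VEGF receptor 3, had 12.8, 1.01, 1.23 and 0.446 CPM in the parental, 2.46 and 2.7 in the treated and 2.48 and 1.39 in the resistant libraries. Within lines SNU-6624 and SNU-6625 every exposed Flt4 value was above its own parental library, by 0.98 to 2.50 on the log2 scale, while SNU-6621 was the highest library, and the log2 fold change over all 8 was -0.77 with an SE of 0.98 (adjusted p = 0.695 by edgeR). Without parental SNU-6621 it was 1.35, and that of Flt1 went from -3.18 to 2.66, so the sign of either rests on that library. Among 14 ligands of these receptors 2 were separated downward (14.3%, against 5.58% of all genes) and 0 upward. Pdgfd had 41.8, 72.2, 61.7 and 63.6 CPM in the parental, 15.1 and 15.2 in the treated and 38.2 and 16.7 in the resistant libraries. Vegfb had 18.3, 15.6, 14.5 and 17.4 CPM in the parental, 2.09 and 3.31 in the treated and 11.9 and 4.26 in the resistant libraries. Both were called lower with 3 groups (adjusted p = 0.0394 and 0.0408), and resistant SNU-6624 was the exposed library nearest to the parental range. Vegfa overlapped, since it had 428, 518, 566 and 524 CPM in the parental, 763 and 674 in the treated and 342 and 294 in the resistant libraries.

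Downstream of receptor kinases, 3 of 19 genes of ERK output and feedback were separated upward and 2 downward (15.8% and 10.5%, against 6.47% and 5.58% of all genes), with a median of 0.17. Dusp5, a nuclear phosphatase of ERK, had 137, 122, 118 and 79.6 CPM in the parental, 239 and 166 in the treated and 293 and 589.7 in the resistant libraries. Dusp4, of the same family, had 79.9, 77.2, 86.5 and 65.9 CPM in the parental, 230.4 and 237 in the treated and 94.6 and 362 in the resistant libraries. Both had no overlap, with log2 fold changes of 1.5 (SE 0.39) and 1.58 (SE 0.36). The feedback inhibitor gene Spry4 was lower: it had 51.6, 19.8, 19.7 and 22.5 CPM in the parental, 15.7 and 17 in the treated and 11.1 and 13.8 in the resistant libraries. Of 11 genes of the EGFR family and its ligands, 2 ligand genes were separated upward (18.2%, against 6.47% of all genes). Areg, the amphiregulin gene, had 75.1, 89.4, 93.2 and 98.6 CPM in the parental, 186 and 134 in the treated and 273 and 430.1 in the resistant libraries. Ereg, the epiregulin gene, had 36.3, 52.5, 159 and 158 CPM in the parental, 249 and 190.0 in the treated and 263 and 448 in the resistant libraries, with parental SNU-6624 and SNU-6625 well above the other parental lines. Areg had a log2 fold change of 1.52 with an SE of 0.34 (adjusted p = 0.137 by edgeR; 0.0299 with 3 groups; 0.00173 to 0.552 over all alternatives), while Egfr itself overlapped.

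Of 22 epithelial junction genes 3 were separated upward (13.6%, against 6.47% of all genes) and 0 downward. Cldn4, a claudin of tight junctions, had 345, 287, 264 and 217 CPM in the parental, 574 and 468 in the treated and 739 and 1538 in the resistant libraries. Resistant SNU-6625 had the highest value and the treated libraries the lowest exposed ones, all above the parental range, and the log2 fold change was 1.58 with an SE of 0.38 (adjusted p = 0.148 by edgeR; 0.0391 with 3 groups; 0.00355 to 0.575 over all alternatives). Marveld2, of tricellular junctions, and Ctnnb1, the beta-catenin gene, were the others. Of 19 biliary and progenitor markers tested 1 was separated upward, Sox9 (5.26%, against 6.47% of all genes). Sox9 encodes a transcription factor of bile duct and progenitor cells. The aquaporin gene Aqp1 and the mucin gene Muc1 were the 2 separated downward (10.5%, against 5.58% of all genes). The median log2 fold change of the 19 markers was -0.23. Sox9 had 4.17, 11.1, 32.9 and 45.5 CPM in the parental, 52.4 and 57.1 in the treated and 76.9 and 201 in the resistant libraries, so that its lowest exposed value was above a parental group that itself ran from 4.17 to 45.5 CPM.

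Of 13 genes of mucins and their helpers, 4 were separated downward (30.8%, against 5.58% of all genes) and 0 upward, and the median log2 fold change was -2.41. Muc5b, a gel-forming mucin, had 717, 55.9, 39.3 and 11 CPM in the parental, 0.419 and 0.0999 in the treated and 5.59 and 0.0573 in the resistant libraries. Agr2, which helps fold mucins, had 0.907, 0.989, 1.84 and 33.1 CPM in the parental, 0 and 0.283 in the treated and 0 and 0.477 in the resistant libraries. The groups did not overlap in either, but 1 parental library carried most of the parental mean, SNU-6621 for Muc5b and SNU-6625 for Agr2. Fcgbp, a mucus protein gene, was the member called with 3 groups (adjusted p = 0.0384), and it had 297, 1058, 307 and 671 CPM in the parental, 43.1 and 32.9 in the treated and 251 and 138 in the resistant libraries. Of the 10 intestinal markers tested 2 were separated downward (20%, against 5.58% of all genes), and the median was -1.05. With 3 groups 4 were called lower (Cdh17, Cdx2, Lgals4 and Slc5a1), against 2.35% of all genes. Cdh17, scaled to library totals only, had 318 to 928 CPM in parental, 17.1 and 46.8 in treated and 596 and 472 in resistant libraries. Lgals4 had 726.5 to 1657, 41.2 and 78.7, and 1238 and 241 CPM in the same groups. Both resistant values of Cdh17 and that of Lgals4 in SNU-6624 lay within the parental range. Slc5a1 had 2 and 0 counts in treated and 8 and 0 in resistant libraries. Cdx2, the intestinal transcription factor gene, had 134, 147, 99.7 and 133 CPM in the parental, 41.2 and 35.3 in the treated and 96.4 and 64.5 in the resistant libraries, with resistant SNU-6624 next to the lowest parental library. Of 20 fatty acid synthesis genes 2 were separated downward, the desaturase genes Fads1 and Fads2 (10%, against 5.58% of all genes). Fads2 had 233, 36.7, 56.6 and 76.4 CPM in the parental, 2.09 and 7.08 in the treated and 23.7 and 7.41 in the resistant libraries. Of 25 cholesterol synthesis genes 0 were separated, with a median of -0.87. With 3 groups 2 were called lower, against 2.35% of all genes. Their summed CPM, scaled to library totals only, was 2755 to 5560 in parental, 1465 and 1598 in treated and 5138 and 2273 in resistant libraries. Only resistant SNU-6624 among the exposed libraries was within the parental range of that sum.

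Of 22 NRF2 targets, antioxidant genes, 1 was separated upward, Taldo1 (4.55%, against 6.47% of all genes), although the median log2 fold change was 0.98. The best-known member, Hmox1, had 73.5, 28.8, 30.8 and 21.9 CPM in the parental, 746 and 342 in the treated and 38 and 69 in the resistant libraries, with both resistant values inside the parental range.

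Of 17 circadian clock genes 4 were separated upward and 3 downward (23.5% and 17.6%, against 6.47% and 5.58% of all genes). Dbp, an output transcription factor of the clock, had 26.3, 41.7, 38.5 and 43.1 CPM in the parental, 11.1 and 15 in the treated and 2.58 and 2.12 in the resistant libraries. Per3, of the repressor arm, had 51.9, 78.7, 88.8 and 84.1 CPM in the parental, 44.4 and 40.2 in the treated and 14.1 and 36.6 in the resistant libraries, and Nr1d2 was the other member on the low side. Arntl, which encodes the activator BMAL1, had 11.1, 8.73, 10.6 and 9.75 CPM in the parental, 14.9 and 15.1 in the treated and 26.9 and 69.8 in the resistant libraries, and Clock, Cry1 and Nfil3 were also on the high side. Dbp had a log2 fold change of -2.28 with an SE of 0.64 (adjusted p = 0.166 by edgeR; 0.018 with 3 groups; 0.00771 to 0.575 over all alternatives). Nr1d1 and Ciart overlapped, since both were high in treated libraries alone: Nr1d1 had 22.1, 64.7, 58.4 and 61.8 CPM in the parental, 181 and 134 in the treated and 26.3 and 44.9 in the resistant libraries.

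**Figure D4:**
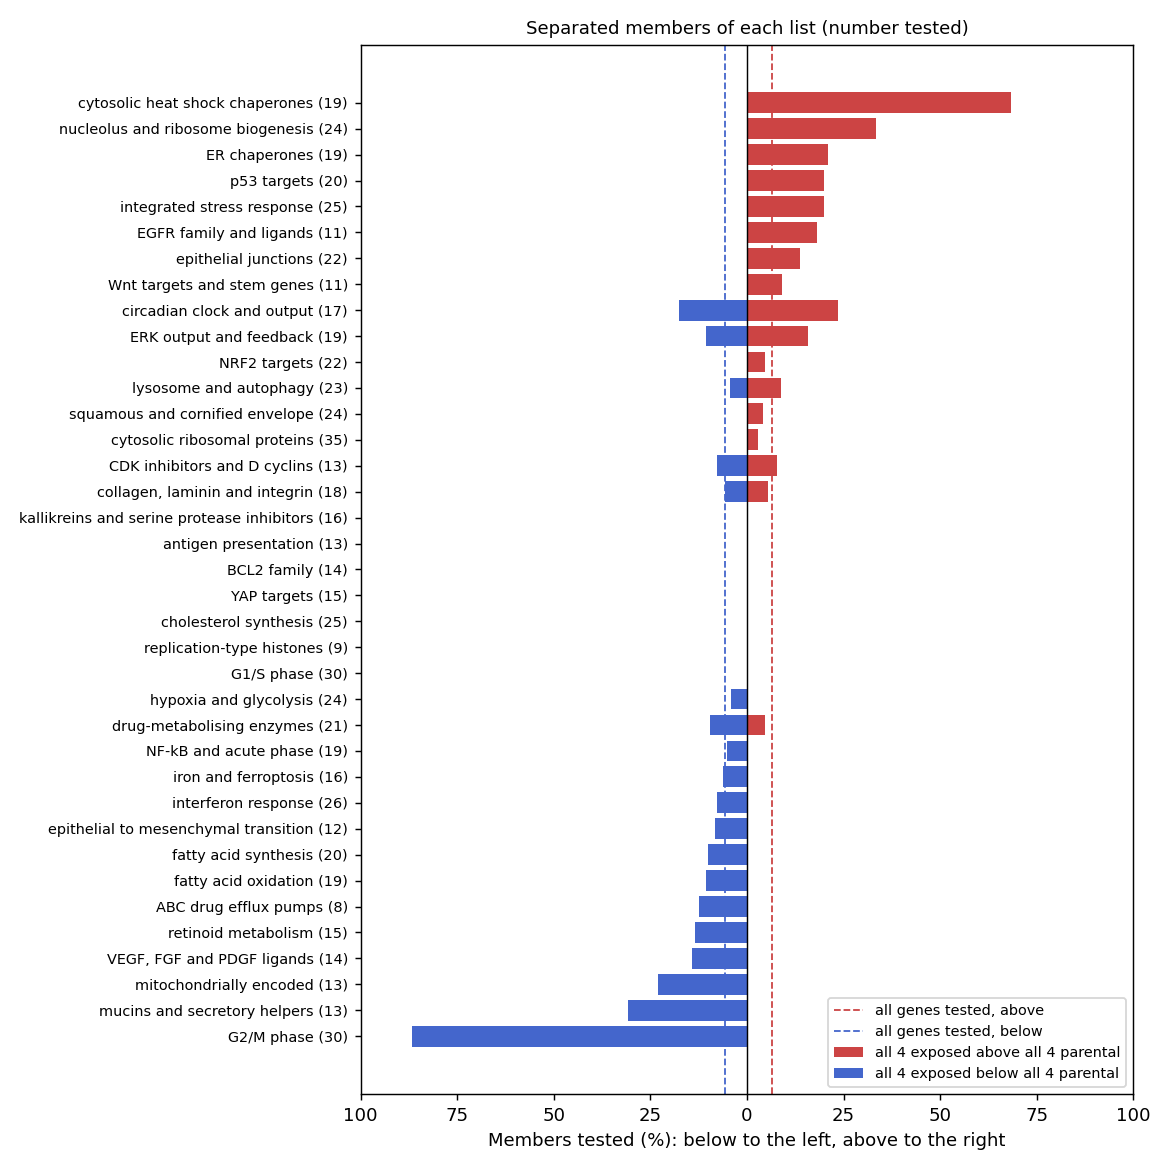
Share of the tested members (%) of each pathway list with at least 8 members tested that were separated, above to the right in red and below to the left in blue, with the number tested in parentheses and dashed lines at 6.47% and 5.58% for all genes tested. The longest bars are heat shock chaperones (68.4% above) and G2/M genes (86.7% below).

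Outside the lists, genes were ranked by the difference in the weakest of the 4 exposed libraries, among separated genes with a mean of at least 5 CPM in the higher group and without provisional symbols, or taken for their small p (Tial1, Spef1 and Lmntd2). They were chosen after the values were seen, because no gene passed the test. Zfp365, a zinc finger gene, had 8.96, 2.88, 3.87 and 6.69 CPM in the parental, 19.4 and 21 in the treated and 13.1 and 37.5 in the resistant libraries. Ckb, brain-type creatine kinase, had 3.11, 4.54, 4.82 and 5.72 CPM in the parental, 14.1 and 22.2 in the treated and 9.54 and 36.1 in the resistant libraries. Pdlim7, a scaffold protein of the actin cytoskeleton, had 42.4, 31.3, 31.6 and 32.4 CPM in the parental, 135 and 114 in the treated and 64.3 and 140.1 in the resistant libraries. Each had all exposed above all parental values, by 1.64 to 2.48, 0.98 to 2.65 and 1.02 to 2.11 over their own lines on the log2 scale. Slc35e3, a gene of the nucleotide sugar transporter family, showed the same at a narrower range, 1.10 to 1.55.

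On the low side, Hif3a (gene 53417, chr7:17030993-17062427), a hypoxia-inducible factor that can oppose the others of its family, had 10.5, 5.03, 5.46 and 10.5 CPM in the parental, 0.134 and 0.15 in the treated and 0.826 and 0.668 in the resistant libraries. Its highest exposed value was 0.826 CPM and its lowest parental value was 5.03 CPM, a log2 fold change of -4.14 with an SE of 0.72 (adjusted p = 0.104 by edgeR; 0.0237 with 3 groups; 8.31e-08 to 0.552 over all alternatives). Pcsk5, a proprotein convertase gene, had 0 counts in all 4 exposed libraries, and 2238, 56, 24 and 118 counts in the parental ones, of which SNU-6621 held most. Tial1 (gene 21843, chr7:128439772-128461726), an RNA-binding protein of stress granules, had the smallest p of the named genes that were lower. It had 106, 104, 126 and 111 CPM in the parental, 62.7 and 61.9 in the treated and 63.9 and 61.2 in the resistant libraries, so that the exposed libraries were almost level. The means were 112 ± 10.1 and 62.4 ± 1.16 CPM (SD, n = 4 each), and the log2 fold change was -0.84 with an SE of 0.11 (adjusted p = 0.104 by edgeR; 0.0254 with 3 groups; 7.18e-14 to 0.552 over all alternatives). Spef1, a microtubule-bundling protein of cilia and flagella, had 11.1, 12.4, 11.6 and 14.2 CPM in the parental, 2.85 and 4.21 in the treated and 4.15 and 2.82 in the resistant libraries. Lmntd2, a lamin tail domain gene, had 28.3, 28.2, 23.7 and 34.3 CPM in the parental, 8.71 and 13.8 in the treated and 9.56 and 9.47 in the resistant libraries. In both genes all exposed values were under all parental ones.

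**Figure D5:**
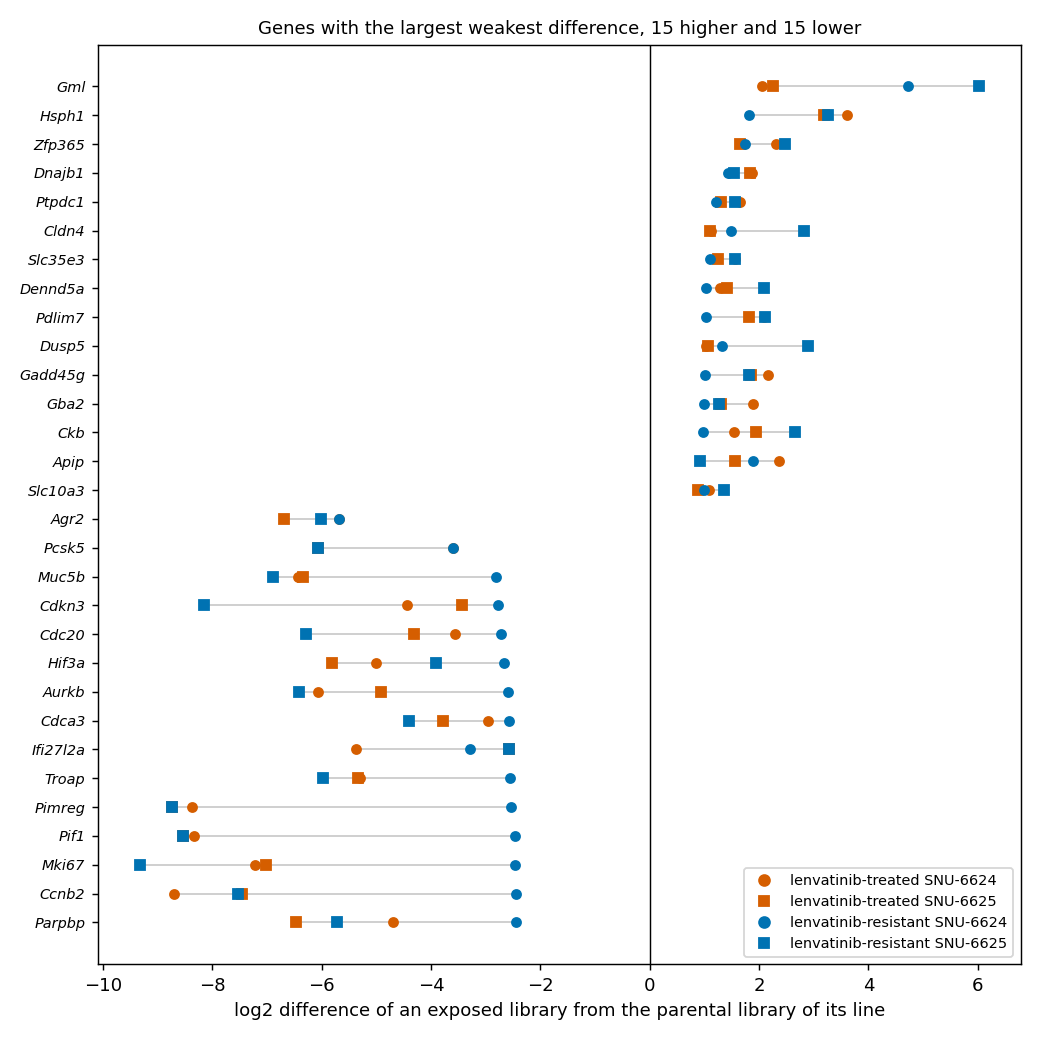
Difference of each exposed library from the parental library of its own line on the log2 CPM scale (prior count 2), for the 15 higher and 15 lower separated genes with the largest smallest difference among those with a mean of at least 5 CPM in the higher group and no provisional symbol, with orange for treated and blue for resistant libraries and the marker shape for the line. Differences run from 0.89 in the weakest library of Slc10a3 to 6.01 in Gml on the high side, and the blue circle of resistant SNU-6624 is the point nearest to 0 in most of the mitosis genes on the low side.

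Whether treated and resistant organoids differed was tested in the 6 libraries of both exposed lines, with line as a term. There edgeR called 1061 of 17038 genes (6.23%), 355 higher (2.08%) and 706 lower (4.14%) in treated organoids. Of the 1938 separated genes 47 were called, 20 of the 1041 higher and 27 of the 897 lower ones. Gml, which encodes a GPI-anchored protein of the Ly6 family, was one. It had 0.0556, 0.212, 0.135 and 0.182 CPM in the parental, 0.67 and 0.999 in the treated and 4.47 and 14.1 in the resistant libraries, so both kinds were above the parental libraries, and treated organoids were lower than resistant ones by a log2 difference of -3.26 (edgeR adjusted p = 0.0401). Dbp went the other way among lower genes, since its lowest values were in the resistant libraries (difference 2.51, edgeR adjusted p = 0.0311). Hnf4a, a regulator of hepatic and intestinal epithelial genes, was called lower with 3 groups (edgeR adjusted p = 0.0308) but was not shared. It had 88.1, 134, 92.6 and 148 CPM in the parental, 5.3 and 9.89 in the treated and 109 and 141 in the resistant libraries. This count rested on single libraries, being 0 without either treated library, 90 without parental SNU-6624, 118 without parental SNU-6625, 5867 when the resistant library of SNU-6625 was left out and 6284 when that of SNU-6624 was.

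Whether the difference between exposed and parental organoids depended on the line was tested by an interaction term in the same 6 libraries. The edgeR test called 0 of 18123 genes (0%), with 88 at an unadjusted p under 0.05, and DESeq2 called 1. Each line has 1 parental library, so the treated and resistant libraries of a line served as its replicates. The residual spread was thus the difference between those kinds. With that spread and 2 residual degrees of freedom, this does not show that the lines responded alike.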

How the data were processed

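The authors deposited whole-number read counts per gene for 45777 NCBI gene identifiers, 1 library per sample, per the file headers. Per the labels' protocols, RNA was taken with Trizol and RNeasy kits and libraries were made with the TruSeq Stranded mRNA kit. The submitters' processing notes name the build mm10, the aligners HISAT2 2.1.0 and Bowtie2 2.3.4.1, and StringTie 2.1.3b, Trimmomatic 0.38 and FastQC 0.11.7. The sources used here do not give the counting step or its strand setting, so overlapping genes on opposite strands and near-identical copies may share reads. Positions and symbols come from RefSeq tables of GRCm38.p6, matched by identifier for 45679 genes.

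Counts were tested in R 4.3.3 by quasi-likelihood in edgeR 4.0.16 (F test, TMM scaling, the tool's filter on low counts, 2-sided, Benjamini-Hochberg adjustment over all genes tested, called under 0.05), with exposed and parental as 2 groups. The residual degrees of freedom were 6 and the biological coefficient of variation was 0.53. Log2 fold changes are exposed minus parental from that fit, and their SE is their size over the root of F. CPM are TMM-scaled. Alternatives were 3 groups, line as a block, the 6 libraries of both exposed lines, DESeq2 1.42.0, limma-voom (limma 3.58.1) with and without line as a random effect, a fold minimum of 1.5, other scalings, other filters, sets of genes left out (those over 1% of counts, or ribosomal RNA, mitochondrial and histone genes) and single libraries left out. Scripts were tested on simulated counts.

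Libraries of the same line pair across groups, since they share a line: across genes, deviations from the group mean of same-line libraries had correlations of 0.547 (parental and lenvatinib), 0.301 (parental and resistant) and 0.298 (lenvatinib and resistant). Whether same-line libraries came from separate cultures or animals is not in the labels, and 2 lines enter 3 times each, so p-values measure only the spread between these libraries.

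The members, lists and named genes were chosen with earlier results of these data known. Named genes, of which the text gives part, were to be called genes whose higher group reached 5 CPM, without provisional symbols, ranked by the smallest of the 4 own-line differences: 15 per direction, up to 3 per list, lenvatinib receptors with at least 1 CPM, Mki67, Hnf4a and Hmox1. Because no gene was called, the 5 smallest p-values per direction were taken and given as not called, and the other ranks were applied to separated genes, which was decided with the values in view. Other list members are named to account for their list. A few further genes (Gadd45b among them) were named with their values known. The result of 1 gene is not reported here.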

Additional observations from a re-analysis of the deposited data

Results flagged for a closer look

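In 19 of the values described for named genes, 1 of the 4 libraries of a group lay far from the other 3, by a gap that took up most of the range of the group. Among many groups of 4 some such gaps arise by chance. The highest of the 4 parental libraries stood apart in SNU-6621 for Ccnd3 (113 CPM), Flt1 (38.5 CPM), Pdlim7 (42.4 CPM) and Spry4 (51.6 CPM), in SNU-6622 for the interferon genes Irf7 (609 CPM) and Xaf1 (78.7 CPM), and in SNU-6624 for Hspe1 (71.1 CPM). Parental SNU-6622 was low for Hspa5 (559 CPM). Among the exposed libraries, resistant SNU-6624 was high for Cyp2c55 (3.09 CPM), Pdgfd (38.2 CPM), Pif1 (2.07 CPM), Pimreg (2.01 CPM) and Tfeb (9.62 CPM) and low for Per3 (14.1 CPM). Resistant SNU-6625 was high for Ctnnb1 (2370 CPM) and Por (1140 CPM) and low for Flt4 (1.39 CPM) and Hadh (53 CPM). Treated SNU-6624 was low for Ifi27l2a (0 CPM, with 0 counts).

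For 5 named genes the change from parental organoids differed between treated and resistant organoids by the edgeR test of that difference. Treated organoids were higher for Dbp (log2 difference 2.51, adjusted p = 0.0311) and Hmox1 (3.31, adjusted p = 0.047). They were lower for Gml (-3.26, adjusted p = 0.0401), Hnf4a (-4.05, adjusted p = 0.0174) and the laminin gene Lama3 (-1.90, adjusted p = 0.042).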

How the results depend on the processing

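The count of genes called for exposed against parental organoids was 0 in the main test and in all alternatives but 3: 744 with 3 groups, 1367 with DESeq2 and 936 without resistant SNU-6624 (0 to 936 over the libraries left out in turn). Called genes that were also separated numbered 538, 1118 and 936 in those 3. With line as a replicate block 0 genes were called, with 1437 at an unadjusted p under 0.05, and 0 were called with 3 groups and the block together. Separated genes numbered 1180 to 2114 higher and 1049 to 2122 lower over the libraries left out, with 2114 and 2122 without resistant SNU-6624, and 2121 higher and 2441 lower in the 6 libraries of both exposed lines alone. Scaling moved them less, to 852 and 843 by library size only and to 973 and 927 by RLE size factors, and 1073 and 873 were found without ribosomal RNA, mitochondrial and histone genes. For treated against resistant organoids, DESeq2 called 3513 genes, no filter gave 324, and leaving out single libraries gave 0 to 6284. The interaction with line had 1 gene by DESeq2, and could not be fitted without a parental library. The log2 fold change of Flt1 turned positive with line as a replicate block (1.49), with 3 groups and the block (0.16), in the 6 libraries (2.87) and without parental SNU-6621 (2.66), and ran from -6.27 to 2.66 over the libraries left out. That of Flt4 did so with the block (1.55), 3 groups and the block (1.53), the 6 libraries (1.44), limma-voom (0.41), limma-voom with line as a random effect (0.26) and without parental SNU-6621 (1.35), and ran from -1.15 to 1.35. Separated members numbered 26 to 30 for G2/M genes and 13 to 16 for chaperones over all these settings, and 0 to 18 for G1/S genes. Leaving out libraries loosens the rule of separation. Such counts, also those over all genes, could hardly fall below those of all 8 libraries, so their lower ends do not measure stability. The cause of these shifts was not tested. With 1 library per line and group, the precision is set by the number of libraries more than by their depth, and genes under about 1 CPM rest on few counts.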
